A study of Homo sapiens with 8 samples.

Results

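RNA levels of 57 genes of DNA replication and nucleotide supply were compared between control cells and cells treated with sodium benzoate (SB). The genes were taken from a list of named replication proteins, and each listed gene with a row in the deposited expression table was kept, so that 57 of the 14526 genes of the table are described. The rule compared no levels between the groups, though the table has rows only for genes above the authors' filter for low levels. The genes were chosen with earlier results of these data known. The cells carry the label HepG2, a line derived from a human liver carcinoma, and were grown in DMEM with serum. Total RNA was sequenced from 4 control libraries and from 4 libraries of cells given SB at 10 mM for 24 hours before harvest. SB is the sodium salt of benzoic acid, a food preservative, and the study used it to raise the benzoylation of histone lysines. The methods of the study call the 4 libraries of a group biological replicates, and the labels do not say whether they came from separate cultures, so the p-values measure the spread between these libraries.

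Levels are in RPKM, reads scaled to gene length and to library size, as the authors deposited them after TMM scaling, a scaling of library sizes that assumes no change for most genes. Whole reads could be recovered from the values, and the libraries held between 37010896 and 44903216 of them. A library held at least 760 reads (POLE4) and at most 31316 reads (MCM4) for each of the 57 genes. Control replicate 1 stood apart from controls 2 to 4. It was the highest control for 27 of the 57 genes and the lowest for 21, and its ratio to the mean of the other controls ran from 0.650 for TK1 to 1.46 for PCNA. Of 20 hepatocyte marker genes, 17 have no row in the table, among them ALB, AFP, APOA1 and SERPINA1, which define the liver lineage. Of those with a row, TF lay between 0.167 and 0.210 RPKM in the controls and between 0.316 and 0.485 RPKM in the SB-treated libraries, and CPS1 between 6.28 and 6.97 RPKM and between 10.9 and 11.1 RPKM. The cells are called here by their treatment.

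Before a cell copies its DNA, the origin recognition complex (ORC) binds the start sites, and CDC6 and CDT1 load the ring-shaped MCM2-7 helicase onto them. The helicase then unwinds the strands with CDC45 and GINS, polymerase alpha-primase lays down primers, and the polymerases delta and epsilon extend them, held on the template by the PCNA clamp. Ribonucleotide reductase, TYMS and TK1 supply the deoxynucleotides, and many of these genes are known targets of the E2F transcription factors, which act as cells enter S phase.

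The promoters of 5 of the genes are shown because their RNA levels moved in different directions, MCM6, PCNA and CDC6 being lower and POLE and CDT1 higher in SB-treated cells. They were chosen after the values were seen. Each sequence is the 250 bases before the RefSeq start of transcription on GRCh38.p14, written 5′ to 3′ on the strand of the gene. MCM6 lies at chr2:135876444-135876693 on the minus strand, PCNA at chr20:5126623-5126872 on the minus strand, POLE at chr12:132687343-132687592 on the minus strand, CDT1 at chr16:88803539-88803788 on the plus strand and CDC6 at chr17:40287629-40287878 on the plus strand. Capitals mark a match to an E2F motif, spelled TTTGGCGC, TTTCGCGC, TTTCCCGC or TTTGCCGC and searched on both strands with overlapping matches counted.
MCM6: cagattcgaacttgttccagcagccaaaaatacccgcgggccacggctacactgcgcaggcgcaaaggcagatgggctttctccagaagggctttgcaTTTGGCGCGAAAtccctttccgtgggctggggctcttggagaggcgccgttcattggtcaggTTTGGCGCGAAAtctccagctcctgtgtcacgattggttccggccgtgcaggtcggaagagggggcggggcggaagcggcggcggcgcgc
PCNA: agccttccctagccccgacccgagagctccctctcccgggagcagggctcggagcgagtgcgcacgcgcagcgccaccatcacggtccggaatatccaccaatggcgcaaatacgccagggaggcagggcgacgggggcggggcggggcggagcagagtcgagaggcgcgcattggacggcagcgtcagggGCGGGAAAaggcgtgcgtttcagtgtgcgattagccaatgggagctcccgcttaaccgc
POLE: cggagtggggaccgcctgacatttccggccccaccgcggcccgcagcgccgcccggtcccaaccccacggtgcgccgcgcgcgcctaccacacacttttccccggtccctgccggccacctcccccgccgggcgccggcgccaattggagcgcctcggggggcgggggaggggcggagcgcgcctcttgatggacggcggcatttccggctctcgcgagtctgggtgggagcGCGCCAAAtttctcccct
CDT1: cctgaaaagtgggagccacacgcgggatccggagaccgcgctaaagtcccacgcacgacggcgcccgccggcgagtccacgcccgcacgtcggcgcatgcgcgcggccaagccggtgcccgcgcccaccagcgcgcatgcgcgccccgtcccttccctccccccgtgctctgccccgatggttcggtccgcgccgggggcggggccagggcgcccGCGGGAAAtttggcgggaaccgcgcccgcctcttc
CDC6: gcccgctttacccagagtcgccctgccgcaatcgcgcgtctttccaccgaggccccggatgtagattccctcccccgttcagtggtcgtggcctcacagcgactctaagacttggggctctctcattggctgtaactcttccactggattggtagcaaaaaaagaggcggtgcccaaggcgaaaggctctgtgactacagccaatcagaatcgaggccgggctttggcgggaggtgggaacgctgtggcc
The MCM6 window held 4 matches, which overlap in pairs on opposite strands, and the windows of PCNA, POLE and CDT1 held 1 each. The CDC6 window held none of these letters in this order, which says nothing of E2F binding there. A promoter entry was found for 50 of the 57 genes, and 14 of them (28.0%) held a match, against 463 of 10651 genes of the table (4.35%) and 979 of all 35116 promoter entries (2.79%). With SB 32.6% of all genes were lower and 33.0% higher. Of the 14 genes with a match, 8 were lower with SB and 2 were higher, with a median difference in log2(RPKM + 1) of -0.22. Of the 36 without a match, 27 were lower and 1 was higher, also with a median of -0.22. A match is a string of letters, not a shown binding site.

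Under the deposited scaling, SB-treated cells had lower relative RNA levels of most of the replication genes, and the differences were small. Of the 57 genes, 41 (71.9%) passed the test downwards (limma adjusted p below 0.05), where 32.6% of all genes were lower. Only POLE, CDT1 and TIMELESS (5.26%) were higher, where 33.0% of all genes were higher, and 13 genes passed in neither direction. The median difference in log2(RPKM + 1) over the 57 genes was -0.23, from -0.69 for POLE3 to 0.52 for POLE, and the median over all 14526 genes was 0.0045. All 4 SB-treated values lay below all 4 control values for 42 of the 57 genes, where this held for 30.5% of all genes. They lay above the controls for POLE and TIMELESS, where this held for 31.0% of all genes. A difference of at least 0.5 on the log2 scale was reached downwards by 4 genes, POLE3, CDC6, ORC5 and RFC2, where 5.45% of all genes reached it, and MCM6 at -0.497 lay just outside. Upwards it was reached by POLE alone, where 5.12% of all genes reached it. In RNA from whole cultures, fewer cells in S phase and less RNA per cell cannot be told apart.

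**Figure D1:**
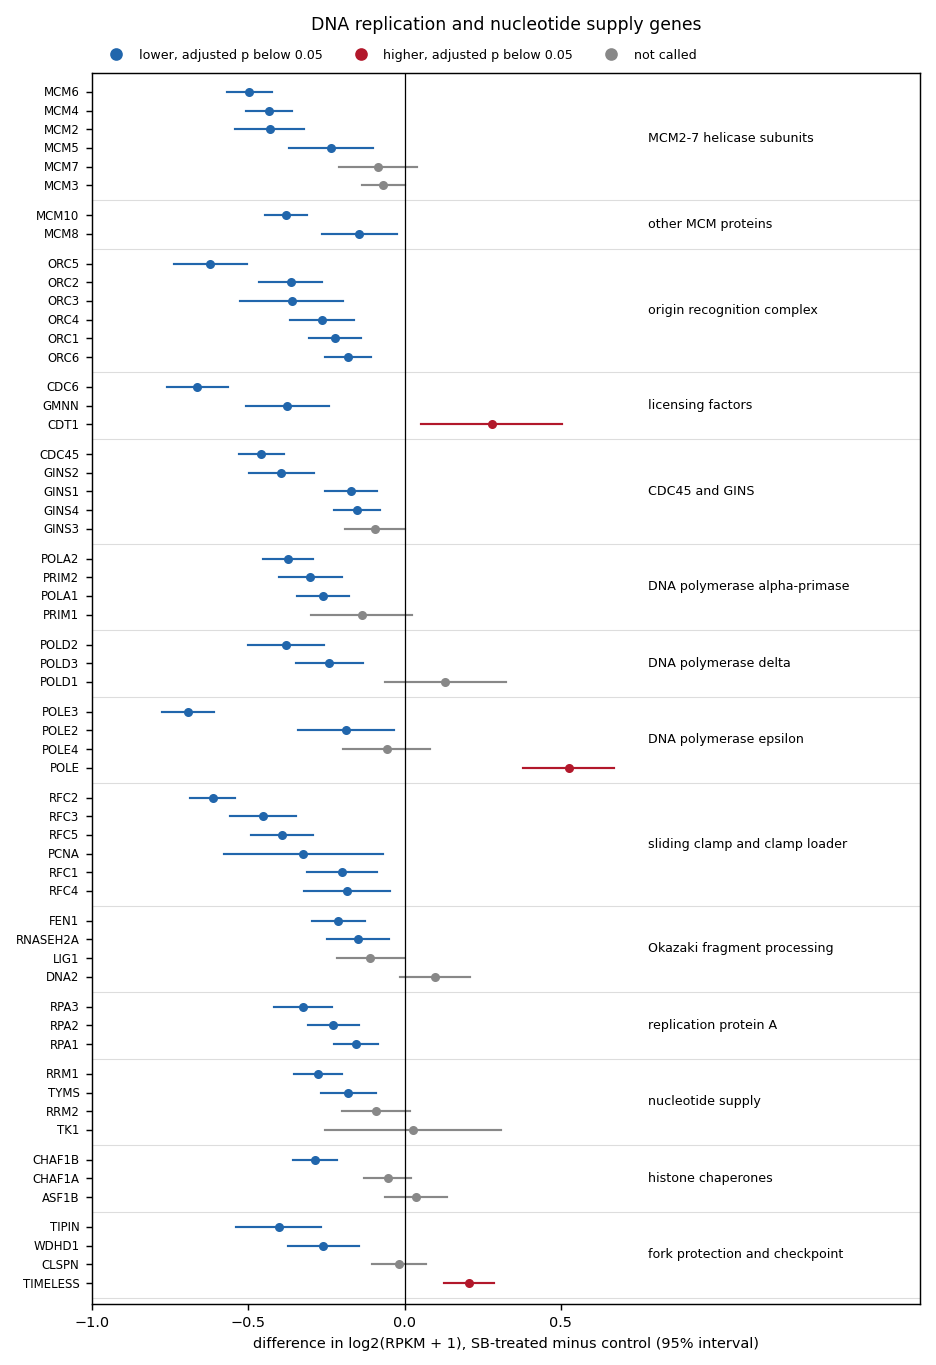
Difference in log2(RPKM + 1), SB-treated minus control, for the 57 genes in blocks by role, with the 95% interval from limma as a bar. Blue points mark the 41 genes that were lower and red points the 3 that were higher with an adjusted p below 0.05 under the deposited scaling, and grey points mark the 13 others; 16 of the 57 signs turned when the libraries were set to equal RPKM sums.

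Genes expressed at like levels were also lower more often than the table as a whole. Over the 5043 genes whose mean lay within the range of the 57 genes, 52.1% were lower and 18.4% were higher, with a median difference of -0.15. This range was set after the data were seen. The counts also moved with the scaling of the libraries. The TMM factors lay between 0.956 and 0.968 in the controls and between 1.03 and 1.04 in the SB-treated libraries. When each library was set to the same sum of RPKM, the median difference of all genes moved to 0.14, with 7441 genes higher and 2432 lower, and 21 of the 57 genes were then lower and 9 higher. Relative to that shifted median, 49 of the 57 genes still lay below and 8 above, against 50 and 7 under the deposited scaling. Library sizes without TMM factors gave 29 lower and 6 higher of the 57, where 23.1% of all genes were lower and 43.0% higher. Under equal sums 16 genes changed sign, 7 of which were called lower in the main test, namely MCM8, ORC6, GINS1, GINS4, RNASEH2A, RPA1 and TYMS.

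**Figure D2:**
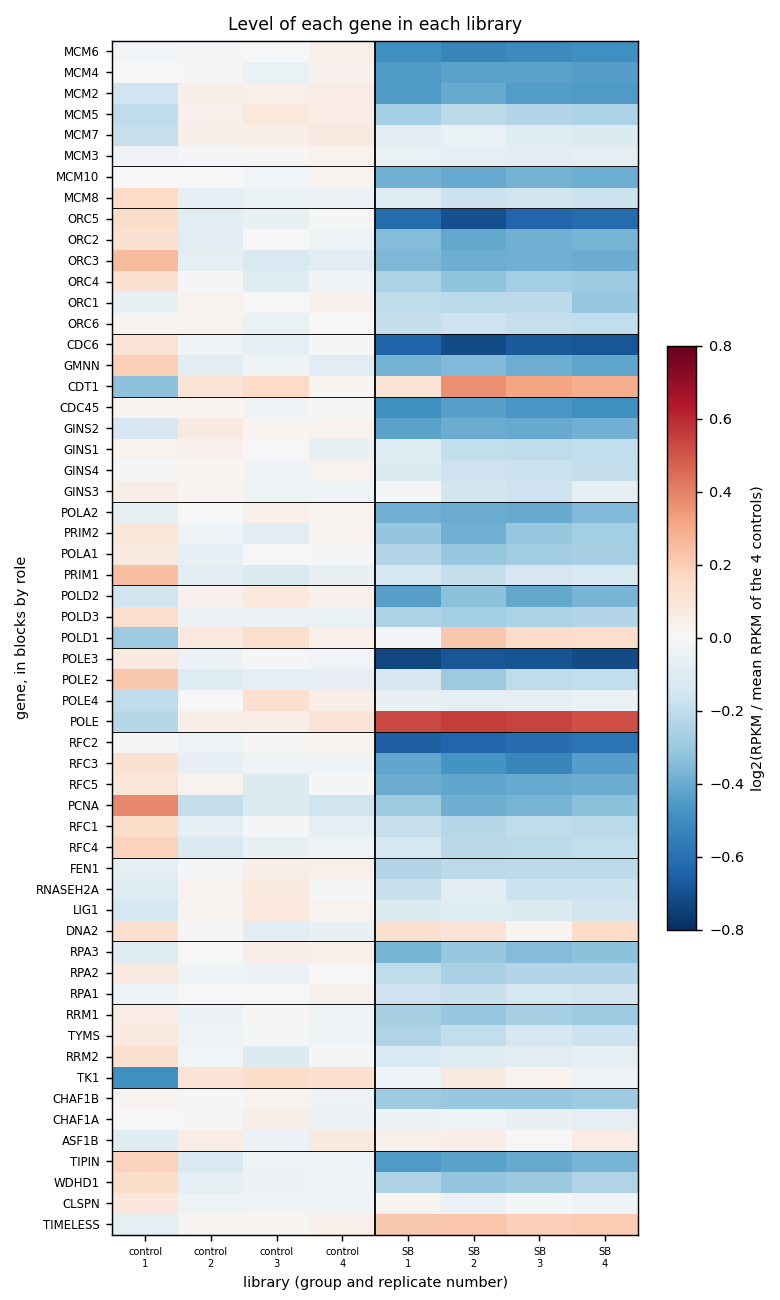
Log2 of the RPKM over the mean RPKM of the 4 controls, for each of the 57 genes (vertical, in blocks by role) in each of the 8 libraries (horizontal). Blue is below and red above the control mean; the SB-treated columns are blue for most genes and red for POLE and TIMELESS, and control replicate 1 differs in colour from controls 2 to 4 for PCNA, TK1 and CDT1.

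The origin recognition complex, which marks the sites where copying starts, was lower as a whole: all 6 ORC subunits passed the test downwards, ORC6 changing sign with equal RPKM sums. ORC5, an ATP-binding subunit, moved most. Its level was 48.0, 40.8, 41.5 and 42.8 RPKM in the controls and 28.2, 26.6, 27.9 and 28.2 RPKM in the SB-treated libraries. Every SB-treated value lay well below the lowest control. The difference was -0.62 on the log2(RPKM + 1) scale (standard error 0.052, limma adjusted p = 7.13e-06). ORC6, the smallest subunit, was the most abundant. It was at 52.7, 53.0, 50.0 and 52.2 RPKM in the controls and at 45.5, 46.3, 45.7 and 45.3 RPKM with SB, again without overlap. Its difference was -0.18 (standard error 0.033, limma adjusted p = 0.000833), and it was -0.01 (limma adjusted p = 0.76) after correction for GC content and length. The other 4 subunits lay between -0.36 (ORC2, ORC3) and -0.22 (ORC1). With equal RPKM sums ORC1, ORC3 and ORC4 no longer passed, and only ORC2 and ORC5 did.

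The licensing factors divided. CDC6, the ATPase that helps to load the helicase, was lower, as was GMNN (geminin), which blocks CDT1, while CDT1, the loading partner of CDC6, was higher. CDC6 was at 85.3, 77.7, 75.1 and 78.8 RPKM in the controls and at 50.9, 48.3, 49.8 and 49.4 RPKM with SB. The groups were far apart, and the SB-treated mean was 0.626 times the control mean, a difference of -0.66 (standard error 0.044, limma adjusted p = 1.8e-06). GMNN fell from 82.5 ± 7.84 to 63.2 ± 1.08 RPKM (SD, n = 4), a difference of -0.37. CDT1 was at 57.4, 77.8, 80.2 and 72.8 RPKM in the controls and at 77.7, 92.7, 89.8 and 88.0 RPKM with SB. The lowest SB-treated value overlapped the controls, and control replicate 1 was far below the other controls. The CDT1 difference was 0.28 (standard error 0.10, limma adjusted p = 0.033), and an exact two-sided permutation test of 4 against 4, whose smallest p is 0.0286, gave p = 0.0857. Without control replicate 1 it was 0.17 (limma adjusted p = 0.0235), and the call was lost without control replicate 4 (limma adjusted p = 0.0553) and without SB-treated replicate 2, 3 or 4 (limma adjusted p = 0.0858, 0.0765 and 0.0698). The ratio of the mean CDT1 level to the mean CDC6 level was 0.909 in the controls and 1.76 with SB, and CDT1 over GMNN was 0.873 and 1.38.

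Of the 6 subunits of the MCM2-7 ring, MCM2, MCM4, MCM5 and MCM6 were lower, and MCM3 and MCM7 did not pass the test. Both turned positive with equal RPKM sums, MCM3 passing as higher at 0.12 (limma adjusted p = 0.00771) and MCM7 at 0.10 (limma adjusted p = 0.132). Both still lay below the median of all genes under that scaling, which was 0.14. MCM6 moved most. It was at 81.7, 82.3, 82.8 and 85.5 RPKM in the controls and at 59.2, 57.5, 58.4 and 59.2 RPKM with SB. No library of either group came near the other. Its difference was -0.50 (standard error 0.032, limma adjusted p = 1.58e-06). MCM2 was at 118, 136, 135 and 137 RPKM in the controls and at 96.0, 99.4, 96.5 and 96.0 RPKM with SB, so that even the low control replicate 1 stood above every SB-treated library. The difference was -0.43 (standard error 0.050, limma adjusted p = 4.74e-05). MCM4 differed by -0.43 and MCM5 by -0.24, the latter not passing with equal RPKM sums. MCM7, the most abundant subunit, was at 143, 168, 169 and 171 RPKM in the controls and at 153, 157, 152 and 151 RPKM with SB. Its control replicate 1 lay below every SB-treated library and its other controls above them. The difference was -0.09 (standard error 0.056, limma adjusted p = 0.206), and -0.15 (limma adjusted p = 0.000527) without control replicate 1. MCM3 differed by -0.07 (limma adjusted p = 0.0754), and by -0.08 (limma adjusted p = 0.0129) without control replicate 1. After correction for GC content and length MCM3 and MCM7 passed as lower, at -0.07 (limma adjusted p = 0.0169) and -0.14 (limma adjusted p = 0.00172). The highest mean of the 6 subunits was 2.01 times the lowest in the controls and 2.62 times with SB.

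MCM10 and MCM8, which are not part of the ring, were both lower, MCM8 changing sign with equal RPKM sums. MCM10, an initiation factor that binds the helicase, was at 47.9, 47.9, 47.4 and 49.0 RPKM in the controls and at 36.8, 36.4, 37.0 and 36.7 RPKM with SB. The libraries of each group nearly coincided, and the difference was -0.38 (standard error 0.030, limma adjusted p = 5.02e-06). MCM8, a helicase of recombination repair, differed by -0.14 (limma adjusted p = 0.0349). It was -0.09 (limma adjusted p = 0.0117) without control replicate 1, and it did not pass without SB-treated replicate 2, 3 or 4 (limma adjusted p = 0.0805, 0.0754 and 0.0796).

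CDC45 and 3 of the 4 GINS subunits, which complete the active helicase, were lower, GINS1 and GINS4 changing sign with equal RPKM sums. CDC45 was at 58.3, 58.4, 56.5 and 56.9 RPKM in the controls and at 41.0, 42.6, 41.6 and 41.0 RPKM with SB. The groups were clearly separate, with a difference of -0.46 (standard error 0.032, limma adjusted p = 2.43e-06). GINS2, the most abundant of them, was at 82.8, 95.7, 92.5 and 92.8 RPKM in the controls and at 67.6, 69.1, 68.9 and 69.8 RPKM with SB. Its difference was -0.39 (standard error 0.047, limma adjusted p = 5.71e-05), and -0.20 after correction for GC content and length. GINS1 differed by -0.17 and GINS4 by -0.15. GINS3 differed by -0.09 (limma adjusted p = 0.0766) and passed only without SB-treated replicate 1, at -0.12 (limma adjusted p = 0.0322).

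**Figure D3:**
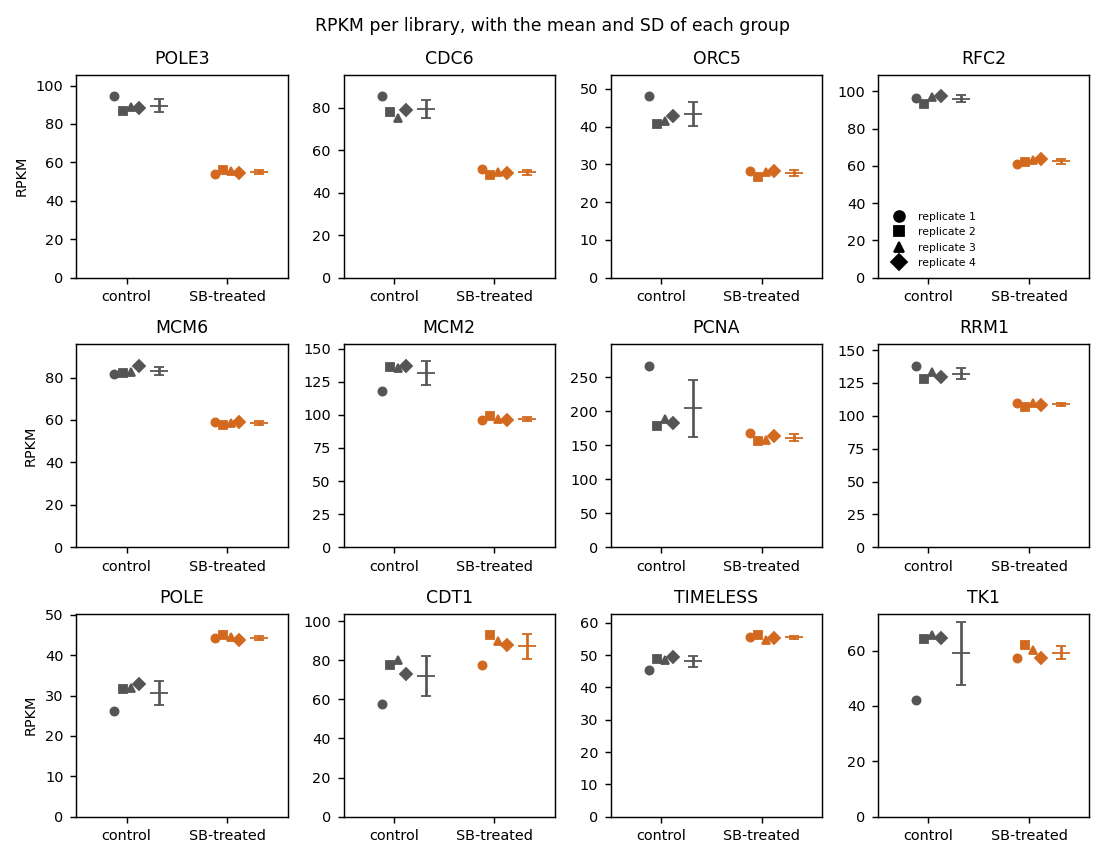
RPKM in each library for 12 of the genes, from 0 on each vertical axis, with the 4 controls in grey and the 4 SB-treated libraries in orange. Markers give the replicate number, and the bars beside them give the mean and SD of each group; control replicate 1 lies high for PCNA at 267 RPKM and low for TK1 at 42.1 RPKM.

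The polymerase subunits did not move as a block. In DNA polymerase alpha-primase, which starts each new strand with an RNA-DNA primer, POLA1, POLA2 and PRIM2 were lower. POLA2, the regulatory subunit, was at 41.2, 43.2, 44.4 and 44.1 RPKM in the controls and at 33.1, 32.8, 32.7 and 33.8 RPKM with SB. Its groups were well apart, with a difference of -0.37 (standard error 0.035, limma adjusted p = 1.41e-05). POLA1, the catalytic subunit, differed by -0.26, no longer passing with equal RPKM sums, and PRIM2, the large primase subunit, by -0.30. PRIM1, the catalytic primase subunit, was at 74.3, 59.0, 58.0 and 60.3 RPKM in the controls and at 57.0, 55.2, 57.4 and 57.7 RPKM with SB. All SB-treated values lay just under the lowest control, and control replicate 1 was far above the rest. The difference was -0.14 (standard error 0.072, limma adjusted p = 0.119), and -0.06 without control replicate 1. It was positive under equal RPKM sums, and after correction for GC content and length PRIM1 was higher, at 0.10 (limma adjusted p = 0.0486). PRIM1 shares exons on its own strand with NACA, so that its reads are uncertain.

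In DNA polymerase delta, which copies the lagging strand, the accessory subunits POLD2 and POLD3 were lower, and the catalytic subunit POLD1 was not. POLD2 was at 92.0, 105, 109 and 105 RPKM in the controls and at 76.1, 81.8, 77.3 and 79.3 RPKM with SB. Control replicate 1 was the lowest control and still above every SB-treated library. Its difference was -0.38 (standard error 0.054, limma adjusted p = 0.000199). POLD3 differed by -0.24, no longer passing with equal RPKM sums. POLD1 was at 34.1 ± 4.22 RPKM in the controls and at 37.2 ± 2.42 RPKM with SB (SD, n = 4), a difference of 0.13 (95% interval -0.06 to 0.32, limma adjusted p = 0.21), and it was 0.04 without control replicate 1 and -0.0019 after correction for GC content and length. With equal RPKM sums POLD1 was higher, at 0.31 (limma adjusted p = 0.00789).

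DNA polymerase epsilon, which copies the leading strand, held both extremes of the 57 genes under the deposited scaling. POLE, its catalytic subunit, was higher, and POLE3, a small histone-fold subunit, was lower by the most. POLE was at 26.1, 31.6, 31.8 and 32.9 RPKM in the controls and at 44.2, 44.9, 44.5 and 43.7 RPKM with SB. Every SB-treated value lay above the highest control, and the SB-treated mean was 1.45 times the control mean. The difference was 0.52 (standard error 0.065, limma adjusted p = 7.6e-05), and it was 0.34 (limma adjusted p = 3.72e-06) after correction for GC content and length. POLE and TIMELESS fall outside the rule for giving values by library and were added after their values were seen, as were the control values of TK1. POLE3 was at 94.4, 86.5, 89.0 and 88.3 RPKM in the controls and at 54.1, 55.8, 55.6 and 54.5 RPKM with SB. The groups were far apart, and the SB-treated mean was 0.614 times the control mean. Its difference was -0.69 (standard error 0.037, limma adjusted p = 6.65e-07). After correction for GC content and length POLE3 was at -0.598, and CDC6 was then the lowest of the 57 genes at -0.600. The ratio of the mean POLE level to the mean POLE3 level was 0.342 in the controls and 0.806 with SB. POLE4, the histone-fold partner of POLE3, was at 29.6 ± 2.85 and 28.3 ± 0.206 RPKM (SD, n = 4), a difference of -0.06 (95% interval -0.20 to 0.08, limma adjusted p = 0.429). The direction of POLE4 changed with the setting. Without control replicate 1 it was lower, at -0.12 (limma adjusted p = 0.00716), and without control replicate 3 it was -0.01. After correction for GC content and length it was higher, at 0.19 (limma adjusted p = 0.0135), and it was also positive with equal RPKM sums and without TMM factors. POLE2 differed by -0.19 (limma adjusted p = 0.0345). It was -0.12 (limma adjusted p = 0.0152) without control replicate 1, 0.0004 after correction for GC content and length, and it did not pass without SB-treated replicate 2, 3 or 4 (limma adjusted p = 0.0942, 0.068 and 0.0662).

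The PCNA clamp and all 5 subunits of replication factor C (RFC), which opens the clamp and places it on DNA, were lower under the deposited scaling, and with equal RPKM sums all 6 kept the sign but only RFC2, RFC3 and RFC5 passed. RFC2 moved most. It was at 96.6, 93.4, 96.7 and 97.3 RPKM in the controls and at 60.9, 61.8, 63.0 and 63.7 RPKM with SB. No values of the groups lay near each other. Its difference was -0.61 (standard error 0.033, limma adjusted p = 6.65e-07). RFC3 differed by -0.45, RFC5 by -0.39, RFC1 by -0.20 and RFC4 by -0.19. RFC4 was -0.12 (limma adjusted p = 0.00637) without control replicate 1, 0.01 (limma adjusted p = 0.792) after correction for GC content and length, and it did not pass without SB-treated replicate 2, 3 or 4 (limma adjusted p = 0.0573, 0.0556 and 0.0516). PCNA was the most abundant of the 57 genes. It was at 267, 179, 189 and 183 RPKM in the controls and at 168, 156, 158 and 163 RPKM with SB. The groups did not overlap, but control replicate 1 was far above the other controls. The difference was -0.32 (standard error 0.11, limma adjusted p = 0.029), and -0.19 (limma adjusted p = 0.000745) without control replicate 1. The PCNA call was lost without SB-treated replicate 2, 3 or 4 (limma adjusted p = 0.0682, 0.0643 and 0.0547) and after correction for GC content and length, where the difference was -0.11 (limma adjusted p = 0.307).

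Of the genes for finishing Okazaki fragments, the short pieces of the lagging strand, FEN1 and RNASEH2A were lower, RNASEH2A changing sign with equal RPKM sums, and LIG1 and DNA2 did not pass. FEN1, the flap endonuclease, was at 48.9, 51.2, 53.4 and 53.2 RPKM in the controls and at 43.9, 44.5, 44.7 and 44.7 RPKM with SB, without overlap. Its difference was -0.21 (standard error 0.037, limma adjusted p = 0.000727), and -0.03 (limma adjusted p = 0.503) with equal RPKM sums. RNASEH2A, the catalytic subunit of the RNase that removes RNA from DNA, was at 94.4, 103, 107 and 100.5 RPKM in the controls and at 89.4, 95.0, 90.0 and 89.9 RPKM with SB. The highest SB-treated value lay above the lowest control. The difference was -0.15 (standard error 0.045, limma adjusted p = 0.0142), and -0.0094 (limma adjusted p = 0.779) after correction for GC content and length. The ligase LIG1 differed by -0.11 (limma adjusted p = 0.0654), and by -0.16 (limma adjusted p = 0.000536) without control replicate 1. LIG1 was at -0.24 (limma adjusted p = 2.63e-05) after correction for GC content and length, and at 0.07 (limma adjusted p = 0.204) with equal RPKM sums. The nuclease-helicase DNA2 differed by 0.10 (limma adjusted p = 0.115), and by 0.14 (limma adjusted p = 0.00748) without control replicate 1. DNA2 was at 0.11 (limma adjusted p = 0.0108) after correction for GC content and length. With equal RPKM sums it was higher, at 0.27 (limma adjusted p = 0.000961), where the median of all genes was 0.14. Without TMM factors it was at 0.19 (limma adjusted p = 0.00504), where that median was 0.0791. FEN1 shares exons on its own strand with FADS2.

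All 3 subunits of replication protein A, which coats single strands, were lower, RPA1 changing sign with equal RPKM sums. RPA3, the smallest subunit, was at 28.9, 30.9, 32.2 and 31.9 RPKM in the controls and at 23.9, 25.1, 24.4 and 24.7 RPKM with SB. The highest SB-treated value stayed under the lowest control. Its difference was -0.32 (standard error 0.041, limma adjusted p = 9.19e-05). RPA2, the most abundant, was at 103, 95.3, 94.8 and 98.1 RPKM in the controls and at 84.9, 81.6, 83.1 and 83.3 RPKM with SB, also without overlap. Its difference was -0.23 (standard error 0.036, limma adjusted p = 0.000402), and -0.04 (limma adjusted p = 0.34) with equal RPKM sums. After correction for GC content and length the differences were -0.14 for RPA3 and -0.09 for RPA2, both passing. RPA1, the large DNA-binding subunit, differed by -0.16.

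Among the enzymes of nucleotide supply, RRM1 and TYMS were lower, TYMS changing sign with equal RPKM sums, and RRM2 and TK1 did not pass. RRM1, the large subunit of ribonucleotide reductase, was at 138, 128, 133 and 129.6 RPKM in the controls and at 110, 107, 109.7 and 108 RPKM with SB. The groups were separate, with a difference of -0.28 (standard error 0.035, limma adjusted p = 8.35e-05). RRM2, the small subunit that carries the radical, was at 85.5, 76.9, 72.6 and 77.6 RPKM in the controls and at 71.8, 73.2, 73.3 and 74.4 RPKM with SB. These values overlapped. The RRM2 difference was -0.09 (95% interval -0.20 to 0.02, limma adjusted p = 0.122), -0.13 (limma adjusted p = 0.04) without control replicate 3, -0.05 (limma adjusted p = 0.175) without control replicate 1, and positive with equal RPKM sums. TYMS, thymidylate synthase, was at 30.4, 28.1, 28.7 and 28.2 RPKM in the controls and at 24.4, 25.2, 26.2 and 25.6 RPKM with SB, without overlap. Its difference was -0.18 (standard error 0.039, limma adjusted p = 0.00246), and -0.03 (limma adjusted p = 0.496) after correction for GC content and length. TYMS overlaps ENOSF1 and TYMSOS on the opposite strand. TK1, thymidine kinase, was at 59.1 ± 11.3 RPKM in the controls and 59.3 ± 2.23 RPKM with SB (SD, n = 4). Its difference was 0.03 (95% interval -0.25 to 0.31, limma adjusted p = 0.858). Without control replicate 1, which was at 42.1 RPKM against 64.1 to 65.5 RPKM in the other controls, it was -0.12 (limma adjusted p = 0.0067).

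The histone chaperones place histones on new DNA. CHAF1B, a subunit of chromatin assembly factor CAF-1, was lower, and CHAF1A and ASF1B did not pass. CHAF1B was at 67.0, 65.4, 67.3 and 64.3 RPKM in the controls and at 54.2, 53.6, 53.6 and 54.1 RPKM with SB. The libraries of each group were close together and the groups were apart. Its difference was -0.29 (standard error 0.031, limma adjusted p = 3.44e-05). CHAF1B shares exons on its own strand with MORC3. CHAF1A, its partner, differed by -0.05 (95% interval -0.13 to 0.02), and ASF1B by 0.04 (95% interval -0.06 to 0.14). Without control replicate 1 ASF1B was at 0.0066, and after correction for GC content and length it was higher, at 0.13 (limma adjusted p = 0.0059). CHAF1A was at -0.10 after that correction (limma adjusted p = 0.0513), and passed with the replicate number as a block added (limma adjusted p = 0.04). With equal RPKM sums CHAF1A and ASF1B were both higher, at 0.13 for CHAF1A (limma adjusted p = 0.00571) and 0.22 for ASF1B (limma adjusted p = 0.00155). The median of all genes was 0.14 under that scaling.

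The genes of fork protection and checkpoint signalling divided as well. TIMELESS and TIPIN, whose proteins form a complex that travels with the fork, moved in opposite directions. TIPIN was at 74.2, 59.9, 63.5 and 63.6 RPKM in the controls and at 47.7, 48.5, 49.4 and 50.4 RPKM with SB. All SB-treated values lay below the lowest control. Its difference was -0.40 (standard error 0.061, limma adjusted p = 0.000275), and -0.16 (limma adjusted p = 0.00288) after correction for GC content and length. TIMELESS was at 45.5, 48.7, 48.5 and 49.5 RPKM in the controls and at 55.7, 56.1, 54.8 and 55.4 RPKM with SB. Here all SB-treated values lay above the highest control. Its difference was 0.21 (standard error 0.036, limma adjusted p = 0.000688), and 0.10 (limma adjusted p = 0.00223) after correction for GC content and length. WDHD1, a replisome protein that binds polymerase alpha, differed by -0.26, no longer passing with equal RPKM sums. CLSPN (claspin), which passes the checkpoint signal at the fork, differed by -0.02 (95% interval -0.10 to 0.07), and by 0.01 without control replicate 1. After correction for GC content and length CLSPN was lower, at -0.12 (limma adjusted p = 0.00317). It was higher with equal RPKM sums, at 0.16 (limma adjusted p = 0.00582), where the median of all genes was 0.14.

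The base composition of the transcripts was correlated with these values, more closely for control replicate 1 than for the SB difference. GC content of the canonical transcripts ran from 37.4% to 64.8%, with a median of 44.2% for the 41 lower genes, 51.7% for the 13 others and 56.4% for the 3 higher ones. Over the 57 genes the Pearson correlation of GC content with the log2 ratio of control replicate 1 to the other controls was -0.828, and with the SB difference it was 0.386, or 0.212 without control replicate 1. Over all genes with a GC value its correlation with the SB difference was 0.127. These points share their libraries, so the correlations are given as a description only. After correction for GC content and length in each library, 39 of the 57 genes (68.4%) were lower and 7 (12.3%) higher. Of all genes with a GC value 36.9% were lower and 34.6% higher under this correction. Beside the values given above, ORC3 then differed by -0.23, GMNN by -0.15, GINS1 by -0.10 and PRIM2 by -0.19, all passing, GINS1 not with the replicate number as a block added (limma adjusted p = 0.0511). Without control replicate 1, 46 of the 57 (80.7%) were lower and 4 (7.02%) higher, where 37.9% of all genes were lower and 37.6% higher. The median coefficient of variation over the 57 genes was 5.88% in the controls, 2.14% in controls 2 to 4 and 1.83% in the SB-treated libraries.

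**Figure D4:**
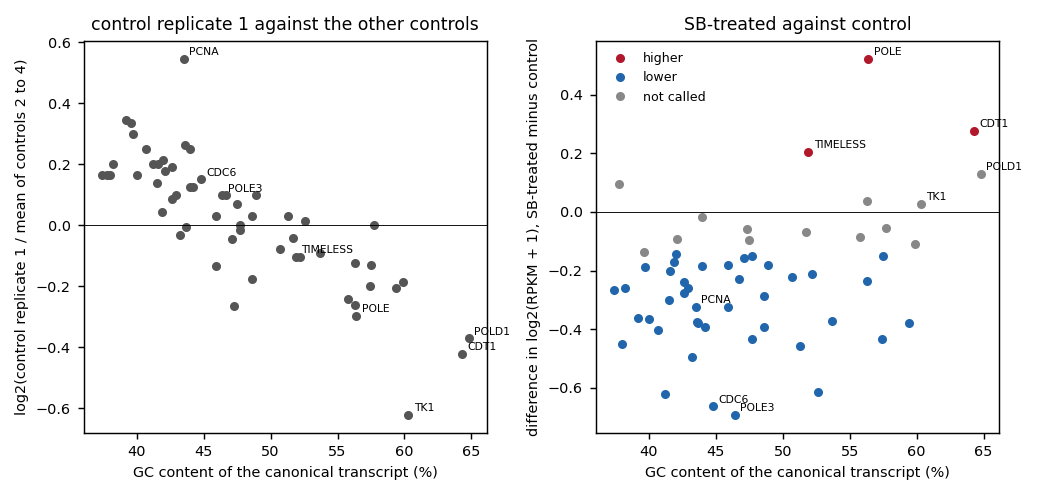
GC content of the canonical transcript in percent (horizontal) for the 57 genes, against the log2 ratio of control replicate 1 to the mean of controls 2 to 4 (left) and against the difference in log2(RPKM + 1), SB-treated minus control (right). Each point is a gene; on the right blue marks lower, red higher and grey not called under the deposited scaling, and the 3 higher genes lie at a GC content of 51.9% or more.

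Genes next to these in the same processes were taken from further lists. Of all genes 32.6% were lower and 33.0% higher, and with equal RPKM sums 16.7% were lower and 51.2% higher. Of 29 other enzymes of nucleotide synthesis with a row in the table, 21 (72.4%) were lower and 1 (3.45%) was higher, with a median difference of -0.24. With equal RPKM sums 11 (37.9%) of them were lower and 5 (17.2%) higher. The largest fall was in NME1, a nucleoside diphosphate kinase, from 87.3 ± 7.21 to 47.5 ± 1.08 RPKM (SD, n = 4), a difference of -0.86 (limma adjusted p = 2.02e-06). The only rise was in TK2, the mitochondrial thymidine kinase, from 2.07 ± 0.137 to 3.13 ± 0.174 RPKM (SD, n = 4), a difference of 0.43 (limma adjusted p = 2.92e-05). Of 26 other replication factors, 14 (53.8%) were lower and 3 (11.5%) higher, with a median of -0.17. Of the 5043 genes within the range of mean RPKM of the 57, 52.1% were lower and 18.4% higher, with a median of -0.15. Some of the 26 factors, such as CTC1, lay below that range. With equal RPKM sums 5 (19.2%) of these factors were lower and 9 (34.6%) higher. They ran from LIG3, a DNA ligase, at -0.57 (limma adjusted p = 9.89e-07) to RECQL4, a helicase, at 0.33 (limma adjusted p = 0.0113). The 13 genes of the E2F and RB family, which regulate many replication genes, did not share the direction of the 57. RBL1 was lower at -0.14 (limma adjusted p = 0.0242), 6 (46.2%) were higher, up to E2F7 at 0.25 (limma adjusted p = 0.000446), and the median was 0.09. With equal RPKM sums none of the family were lower and 10 (76.9%) were higher. Of 25 mitotic genes, 8 (32.0%) were lower and 7 (28.0%) higher, near the 32.6% and 33.0% of all genes, with a median of -0.02. All 25 lay within the range of mean RPKM of the 57 genes, where 52.1% were lower and 18.4% higher. With equal RPKM sums 3 (12.0%) of the mitotic genes were lower and 13 (52.0%) higher, near the 16.7% and 51.2% of all genes. After correction for GC content and length 8 (32.0%) were lower and 14 (56.0%) higher, with a median of 0.10. Of all genes with a GC value 36.9% were then lower and 34.6% higher. Under the deposited scaling the mitotic genes ran from the checkpoint gene MAD2L1 at -0.47 (limma adjusted p = 0.00069) to the separase gene ESPL1 at 0.56 (limma adjusted p = 0.000402). Among the hepatocyte markers the largest rise was in CPS1, an enzyme of the urea cycle, from 6.57 ± 0.319 to 11.0 ± 0.0631 RPKM (SD, n = 4), a difference of 0.67 (limma adjusted p = 8.81e-07).

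**Figure D5:**
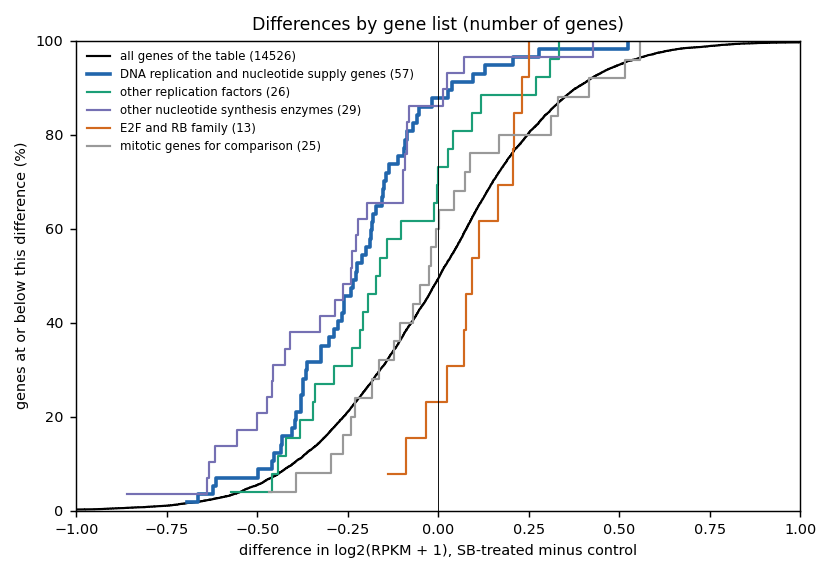
Cumulative share of genes in percent (vertical) at or below a given difference in log2(RPKM + 1), SB-treated minus control (horizontal), for all 14526 genes in black, the 57 replication genes in blue and 4 other lists in the colours of the key. Under the deposited scaling the curve of the 57 genes crosses its middle at -0.23 and that of all genes at 0.0045; with equal RPKM sums the median of all genes lay at 0.14 and that of the 57 genes at -0.04.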

How the data were processed

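Total RNA of 8 libraries was sequenced by the authors, who per the labels and the paper's methods mapped reads to hg38 with TopHat2 2.1.0, counted them per gene with featureCounts 1.5.0, used edgeR 3.16.5 for TMM scaling, having dropped low genes (at most 1 CPM in all or all but 1 library). The deposited table gives RPKM per gene and library. Its columns of the authors' own comparison (log2 fold change, mean log2 CPM, p-value and FDR) were not used, and 0 columns of per-sample values were left unused. Whether counting used the strand is not given in the sources used here. Of the 57 genes, 14 overlap exons of another gene of the table, 3 on the same strand and 12 on the opposite strand, and 12 have annotated pseudogenes, none with a row.

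Differences were tested with limma 3.58.1 in R 4.3.3 (lmFit and eBayes, two-sided) on log2(RPKM + 1), and p-values were adjusted over all 14526 genes by the Benjamini-Hochberg method, with a threshold of 0.05. The pseudocount of 1 lowers the differences of genes with low RPKM. Both groups had 4 libraries, and an exact permutation test over the samples was run beside limma for each of the 57 genes. Read numbers came out whole for 100.0% of the genes within a tolerance of 0.002 reads, from 37010896 to 44903216 reads per library. Recovery and tests were tested on simulated data. GC content came from GENCODE canonical transcripts, found for 91.5% of the genes, and promoters from RefSeq with Python 3.11.15.

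The genes and the lists were chosen with earlier results of these data known. Values by library are given for the member of each role with the largest absolute difference, for the member with the highest mean RPKM, and for PCNA, MCM2, CDC6, RRM2 and TYMS. From each other list, values are given for the largest rise and fall. The result of 1 marker gene is not reported here. Alternatives were a pseudocount of 0.1, equal RPKM sums, median-of-ratios scaling, a mean of at least 1 RPKM, voom on recovered reads, the replicate number as a block, GC and length correction, and leaving out each library. Library sizes without TMM factors and voom with the block were chosen after seeing the data.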

Additional observations from a re-analysis of the deposited data

Results flagged for a closer look

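In 15 of the 114 groups of 4 libraries examined (57 genes in each treatment), 1 library stood off from the other 3 on the log2(RPKM + 1) scale by more of the range of the group than Dixon's 95% critical value allows, where chance would give about 5.70 groups. Control replicate 1 was that library in 11 of them. It was the lowest control for MCM2 (gap 0.917 of the range), MCM5 (0.856), MCM7 (0.920) and TK1 (0.951). It was the highest control for MCM8 (0.873), ORC3 (0.878), PRIM1 (0.842), POLD3 (0.973), POLE2 (0.856), PCNA (0.872) and CLSPN (0.919). Among the SB-treated libraries, replicate 2 was apart on the high side for MCM2 (0.831) and RNASEH2A (0.886), replicate 1 on the high side for GINS1 (0.948), and replicate 4 on the low side for ORC1 (0.851). What sets control replicate 1 apart was not tested.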

How the results depend on the processing

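The 57 genes were 41 lower and 3 higher in limma. These counts were the same with a pseudocount of 0.1, median-of-ratios scaling, a mean of at least 1 RPKM and voom on recovered reads, and each of the 57 genes kept its direction and its side of the threshold under these 4 settings. With equal RPKM sums 21 were lower and 9 higher (all genes 2432 lower and 7441 higher). Without TMM factors 29 were lower and 6 higher (all genes 3357 lower and 6253 higher). GC and length correction gave 39 lower and 7 higher (all genes 4902 lower and 4597 higher). With the replicate block added it gave 39 lower and 6 higher (all genes 4852 lower and 4547 higher). Leaving out 1 library gave between 37 and 46 lower and between 2 and 4 higher, the highest counts without control replicate 1. For all genes the counts ran from 4285 to 5511 lower and from 4311 to 5459 higher, also highest without control replicate 1.

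With equal RPKM sums 16 genes turned positive: MCM3 (0.12), MCM7 (0.10), MCM8 (0.0363), ORC6 (0.0009), GINS1 (0.0071), GINS3 (0.0859), GINS4 (0.0258), PRIM1 (0.0468), POLE4 (0.12), LIG1 (0.0703), RNASEH2A (0.0355), RPA1 (0.0269), RRM2 (0.093), TYMS (0.0004), CHAF1A (0.13) and CLSPN (0.16). Without TMM factors 7 turned positive: MCM3 (0.0361), MCM7 (0.0193), GINS3 (0.0071), POLE4 (0.0437), RRM2 (0.0125), CHAF1A (0.0491) and CLSPN (0.082). After GC and length correction, with and without the block, the values were 0.10 for PRIM1, -0.0019 for POLD1, 0.0004 for POLE2, 0.19 for POLE4 and 0.0131 for RFC4. Without control replicate 1 they were -0.12 for TK1 and 0.0122 for CLSPN. Over single libraries left out, TK1 ran from -0.12 to 0.0841 and CLSPN from -0.0299 to 0.0122. The 2 scalings moved all genes by construction, with medians of all genes at 0.14 for equal RPKM sums and 0.0791 without TMM factors. The causes of the other changes were not tested.

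Deviations of same-numbered libraries from their group means correlated at 0.380, 0.327, 0.173 and -0.160 across genes for replicates 1 to 4, and 4 of the 8 libraries correlated best with their own number, so these values do not settle whether equal numbers mark a shared batch, and the numbers were not treated as pairs. With the replicate block in limma, 41 genes were lower and 4 higher, POLD1 being added (limma adjusted p = 0.046). Of all genes 4894 were then lower and 4885 higher. Voom with the block gave 42 lower and 4 higher (all genes 4973 lower and 4984 higher). Genes under the filter of the authors cannot be seen, and each of the 57 genes had at least 760 reads in every library.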
